A study of Rattus norvegicus with 48 samples.

Results

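Liver RNA-Seq of rats on a steatohepatitis diet held a group of 144 genes that were already raised after 4 weeks of diet and whose diet difference was within a set limit of that after 8 and 12 weeks. They were selected on measured values. Read counts were scaled to the total of reads on genes of each animal (CPM), and the 12029 genes with a mean of at least 1 CPM over all 48 animals were kept out of 32662 genes in the count table. D was the mean log2(CPM + 1) of the 8 diseased animals of a week minus that of the 8 controls, less the median of this difference over the 12029 genes. Members had a D of at least 1.5 at week 4 and a D at weeks 8 and 12 within 0.4 of it. They were 1.197% of the 12029 genes and 32.7% of the 441 genes with a D of at least 1.5 at week 4.

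All animals were male Wistar rats (RjHan:WI), housed in pairs and 6 weeks old on arrival, with no genetic change. The disease groups received a diet of defined L-amino acids without choline and with 1% cholesterol (CDAA, spelled CDDA in the labels), with 11% of the energy from protein, 31% from fat and 58% from carbohydrate and with 0.17% methionine. The control groups received the choline-supplemented diet CSAA, with 12%, 16% and 72% of the energy from protein, fat and carbohydrate and with 0.4% methionine. There were 8 animals per diet after 4, 8 and 12 weeks, which makes 6 groups and 48 livers with 1 library each. The diets differed in choline, methionine, protein, fat, carbohydrate and cholesterol at once, so that the part of each in a value cannot be told apart.

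Choline is needed to make phosphatidylcholine, without which the liver cannot export triglycerides in lipoproteins. Rats on such diets develop fatty liver, followed by inflammation with recruited immune cells and by scarring, and added cholesterol makes this worse. In whole liver a gene can be raised because cells that express it became more numerous or because each cell holds more of its RNA, and the 2 cases cannot be told apart in these data. The tables list Ensembl identifiers without gene names, so that the members are described by their values. The tissue label was not checked against liver markers and no cell type or pathway is named.

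Between 13619274 and 22284359 reads were counted on genes per animal, with a median of 18614479. Several animals stood apart from their groups. Among the members, animal 303 of CDAA at week 4 was the lowest of 8 in 143 of 144 genes, animal 504 of CSAA at week 8 was the highest in 141 and animal 908 of CSAA at week 12 was the highest in 141. Over all 12029 genes the same was true for 60.4%, 49.1% and 28.2% of the genes. These animals lay toward the other diet. They were kept in all values unless stated, and the main values are also given without them.

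The members had a median D of 1.71, 1.67 and 1.81 at weeks 4, 8 and 12, which corresponds to 3.26-fold, 3.19-fold and 3.51-fold on the scale with the pseudocount of 1. These values chose the members and are not tested. Week 4 values of D reached from 1.503 to 3.06, those of week 8 from 1.13 to 3.09 and those of week 12 from 1.24 to 3.38. At week 4, 31 members had a D of at least 2 and 11 had a D of at least 2.5, and 22 had a D of at least 2 at all 3 weeks. The subtracted median over all genes was itself 0.33, 0.54 and 0.63 at weeks 4, 8 and 12. Without this subtraction the same limits chose 219 genes, of which 74 were among the 144.

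**Figure D1:**
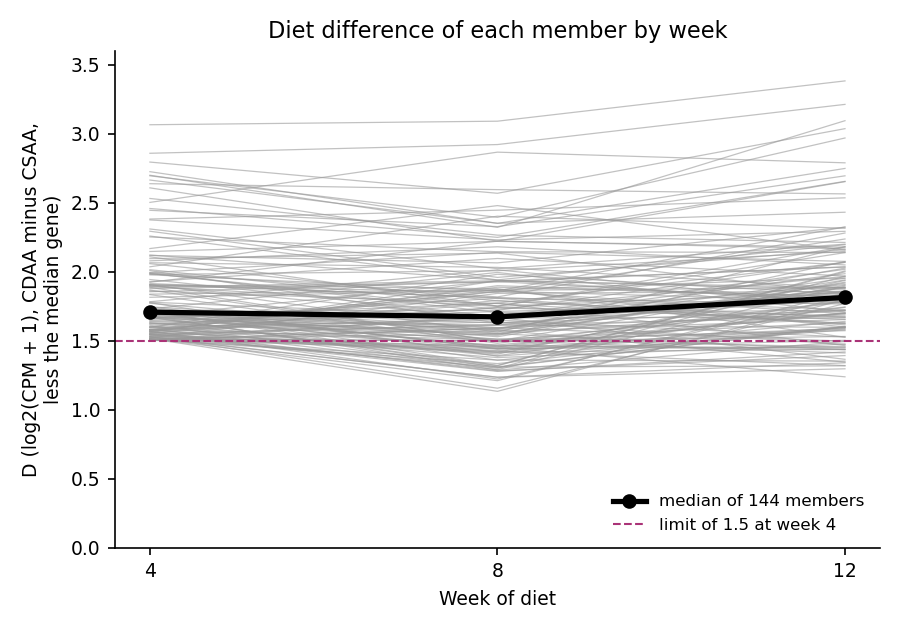
Diet difference D of each of the 144 members (grey lines) at weeks 4, 8 and 12, with the median as a black line and the limit of 1.5 at week 4 dashed. The y axis is the difference in log2(CPM + 1) between CDAA and CSAA less that of the median gene, and the median stays between 1.67 and 1.81.

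Within the limits of the selection the members did not move alike. D was lower at week 8 than at week 4 in 95 members and higher in 49, with a median shift of -0.12. At week 12 it was higher than at week 4 in 83 members and lower in 61, with a median shift of 0.07. Week 12 held the highest of the 3 values in 66 members, week 4 in 49 and week 8 in 29. A closer limit of 0.2 was met by 46 members. The most even member had a D of 1.89, 1.93 and 1.87 at weeks 4, 8 and 12. Of the other 297 genes with a D of at least 1.5 at week 4, 49 lay higher by more than 0.4 at both later weeks, 90 at week 12 only and 7 at week 8 only, whereas 59 lay lower at both, 58 at week 8 only and 19 at week 12 only, and 15 were mixed.

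The limit of 0.4 was close to the error between animals. The standard error of D at week 4 had a median of 0.24 over the members, that of the shift from week 4 to week 8 a median of 0.34 and that of the shift from week 4 to week 12 a median of 0.31. In 1 of 144 members the shift to week 12 had an error small enough that 2 standard errors were below 0.4. Genes on either side of the limits were alike. The members next to the limit of 1.5 had a D at week 4 of 1.5026 and 1.5030, and the nearest genes outside that met the other limits had 1.4972 and 1.4916. Next to the limit of 0.4 the larger shift was 0.3998 and 0.3992 in the nearest members and 0.40003 and 0.4032 in the nearest genes outside. A shift above 0.3 was found in 53 members, and 54 genes had a shift between 0.4 and 0.5.

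The evenness over time rested in part on single animals. Without animal 303, the median D of the 144 members at week 4 rose to 1.85 and their median shift to week 8 was -0.27, with 42 members beyond -0.4. Their median shift to week 12 was then -0.08, with 14 members beyond -0.4. Without animal 504 alone the median shift to week 8 was 0.02, and without animal 908 alone that to week 12 was 0.20. Without all 3 animals the median D of the 144 members was 1.85, 1.80 and 1.96 at weeks 4, 8 and 12. Their median shifts to weeks 8 and 12 were then -0.14 and 0.05, with 13 and 5 members beyond -0.4. The rule applied without animal 303 chose 174 genes, of which 97 were among the 144 (67.4% of the members and 55.7% of the 174). Without animal 504 it chose 153 genes with 130 shared, without animal 908 115 genes with 110 shared, and without these 3 animals 169 genes with 124 shared. In 48 repeats that each lacked 1 animal, 46 members (31.9%) were chosen every time. The label of genes held constant thus describes the means of these groups of 8, and for most members it changed with at least 1 animal left out.

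Most members were lowly expressed in control liver. This follows in part from the rule, since a gene could reach the mean of 1 CPM through its CDAA animals. Levels of the 297 raised genes that were not held are not given, so a low control level is not read as particular to the members. Levels of different genes can be compared as RPKM, which also takes gene length into account. The mean RPKM over the 24 CSAA animals had a median of 1.48 over the members, from 0.0543 to 58.1, against 5.08 over all genes. It was below 1 in 58 of 144 members and in 17.8% of all genes. Over the 24 CDAA animals the median was 9.66, from 0.936 to 287, against 7.94 over all genes. There, 69 members had at least 10 RPKM and 8 had at least 100. By group, the median RPKM of the members was 1.23, 1.73 and 1.32 on CSAA and 7.44, 9.97 and 9.73 on CDAA at weeks 4, 8 and 12. When animals 303, 504 and 908 were left out it was 1.34 and 1.08 on CSAA at weeks 8 and 12 and 8.14 on CDAA at week 4. The median gene length behind these values was 2368 bases for the members and 2261 for all genes.

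Together the members took a small part of the reads. On CSAA the share of reads was 0.112 ± 0.00735%, 0.147 ± 0.0744% and 0.127 ± 0.0472% after 4, 8 and 12 weeks (SD, n = 8 each). On CDAA it was 0.544 ± 0.147%, 0.693 ± 0.0694% and 0.731 ± 0.0772% (SD, n = 8 each). The share was 0.316% in the highest CSAA animal of week 8, 0.243% in the highest of week 12 and 0.198% in the lowest CDAA animal of week 4. Leaving out these animals, 303, 504 and 908, the share was 0.122 ± 0.0315% and 0.111 ± 0.00746% on CSAA at weeks 8 and 12 and 0.593 ± 0.0477% on CDAA at week 4 (SD, n = 7 each). On CDAA the 10 members with most reads held 39.3% of all member reads and the first of them 9.04%. The member with the highest level on CDAA ranked 250th of all genes. Its mean was 121 ± 8.59 CPM on CSAA and 475 ± 140.0 CPM on CDAA at week 4, 127 ± 57.6 against 675 ± 122 CPM at week 8, and 111 ± 39.8 against 628 ± 122 CPM after 12 weeks (SD, n = 8 each). Without animal 908 the control mean after 12 weeks was 97.0 ± 6.48 CPM (SD, n = 7).

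ENSRNOG00000056219 had the highest mean D of all members, with a D of 3.06, 3.09 and 3.38 at weeks 4, 8 and 12. At week 4 it ranged from 0.266 to 1.43 CPM on CSAA (median 0.642) and from 1.79 to 30.9 CPM on CDAA (median 22.1). The lowest CDAA value belonged to animal 303, and the other 7 animals were at 13.4 CPM or more, so that the diets did not overlap. Week 8 values spanned 0.191 to 12.8 CPM on CSAA (median 0.743) and 21.1 to 61.0 CPM on CDAA (median 27.4). Week 12 values spanned 0.195 to 9.04 CPM on CSAA (median 0.373) and 16.2 to 50.4 CPM on CDAA (median 31.5). The highest CSAA values were those of animals 504 and 908, and the other 7 controls of each week were at 4.93 and 2.98 CPM or less. The group means were 29.0-fold, 11.8-fold and 18.4-fold apart at weeks 4, 8 and 12. Without animals 303, 504 and 908 they were 32.8-fold, 24.2-fold and 45.1-fold apart, so that week 12 took the place of week 4 as the highest. The CSAA mean was 2.80 CPM at week 8 and 1.76 CPM at week 12 with all animals, and 1.37 CPM without animal 504 and 0.719 CPM without animal 908. The fold between the means thus varied by week in a gene whose D stayed within the limit of 0.4. Before the median over all genes was subtracted, its diet difference was 3.39, 3.63 and 4.02 at weeks 4, 8 and 12. The member with the next highest mean D had a D of 2.86, 2.92 and 3.21, with means of 2.01, 4.24 and 3.17 CPM on CSAA and of 28.9, 41.3 and 49.1 CPM on CDAA. Without animal 504 its CSAA mean of week 8 was 2.38 CPM, and without animal 908 that of week 12 was 1.90 CPM.

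**Figure D2:**
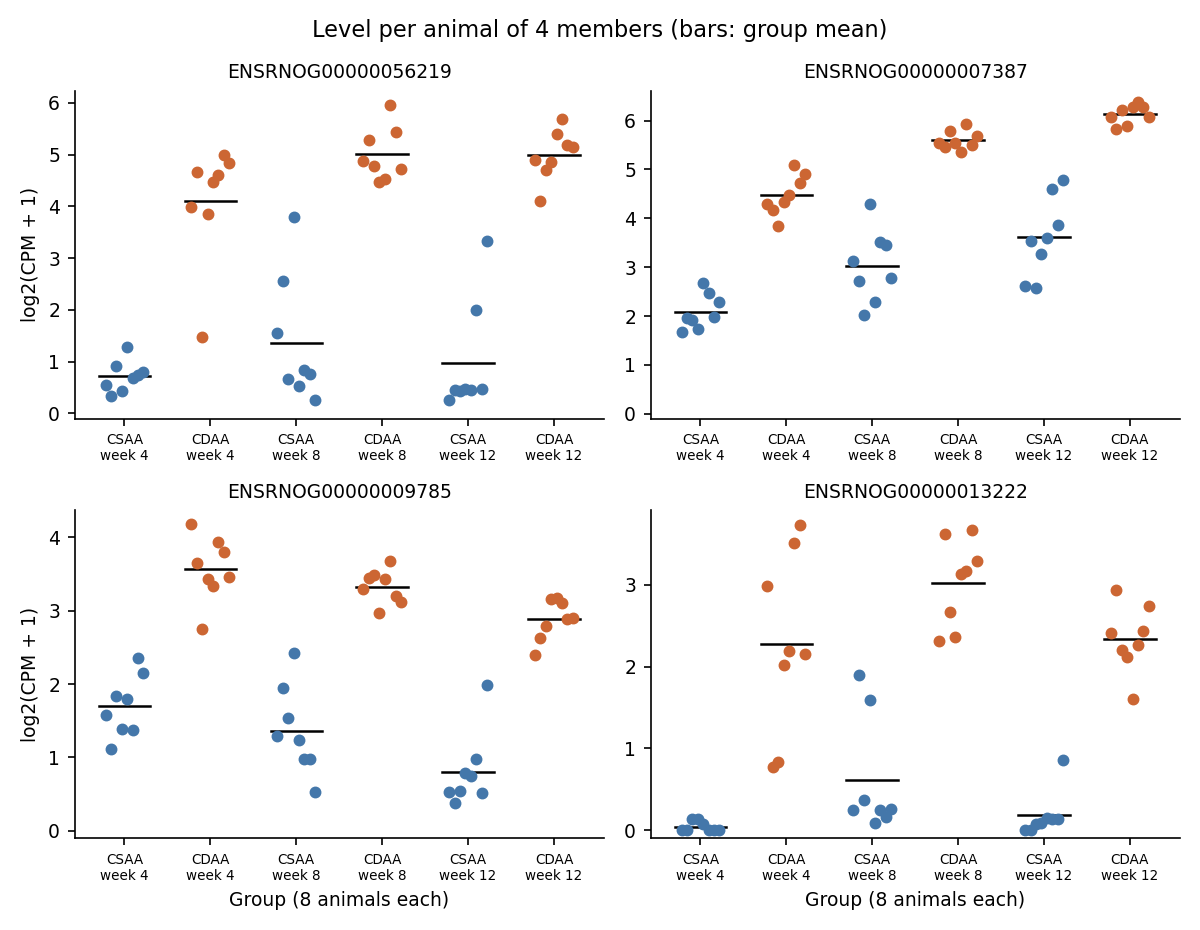
log2(CPM + 1) of each of 8 animals per group for 4 members, CSAA in blue and CDAA in orange, with bars at the group mean. In ENSRNOG00000056219 the low CDAA point of week 4 at 1.79 CPM is animal 303. ENSRNOG00000007387 is higher at week 12 than at week 4 on both diets and ENSRNOG00000009785 is lower.

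The separation of the diets by animal was described next, although it comes from the contrast that chose the members. All 8 CDAA animals lay above all 8 CSAA animals in CPM in 117 of 144 members at week 4, where this was so in 14.1% of all genes. At week 8 it was 138 members (46.6% of all genes) and at week 12 143 members (54.1%). At all 3 weeks it was 113 members (10.2%). Without animals 303, 504 and 908 it was 144 of 144 members at each week, against 37.9%, 52.2% and 55.4% of all genes. These animals were set apart by their values in the members. More separation without them therefore follows from that choice, and nothing is read from it.

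A score per animal, the mean log2(CPM + 1) of the members less the log2(CPM + 1) of the median gene, placed the 48 animals. The score is made from the values that chose the members. Its difference between the diets therefore follows from the selection, and nothing is read from it. The CSAA groups had scores of -1.48 ± 0.09, -1.27 ± 0.47 and -1.38 ± 0.36 in the order of the weeks (SD, n = 8 each). The CDAA groups had scores of 0.23 ± 0.40, 0.42 ± 0.10 and 0.34 ± 0.09 (SD, n = 8 each). Without animals 303, 504 and 908 the scores were 0.37 ± 0.07 on CDAA at week 4, -1.41 ± 0.29 on CSAA at week 8 and -1.50 ± 0.07 on CSAA at week 12 (SD, n = 7 each). Every CDAA animal lay above every CSAA animal of its week, but animal 303 at -0.75 was below animals 504 at -0.34 and 908 at -0.49 of the control diet. Animal 502 of CSAA at week 8 was at -0.80, and the other 6 controls of its week besides animal 504 were at -1.30 or less. On CDAA at week 12, animal 1102 was lowest with 0.16, and it was the lowest of 8 in 97 members, against 35.9% of all genes.

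**Figure D3:**
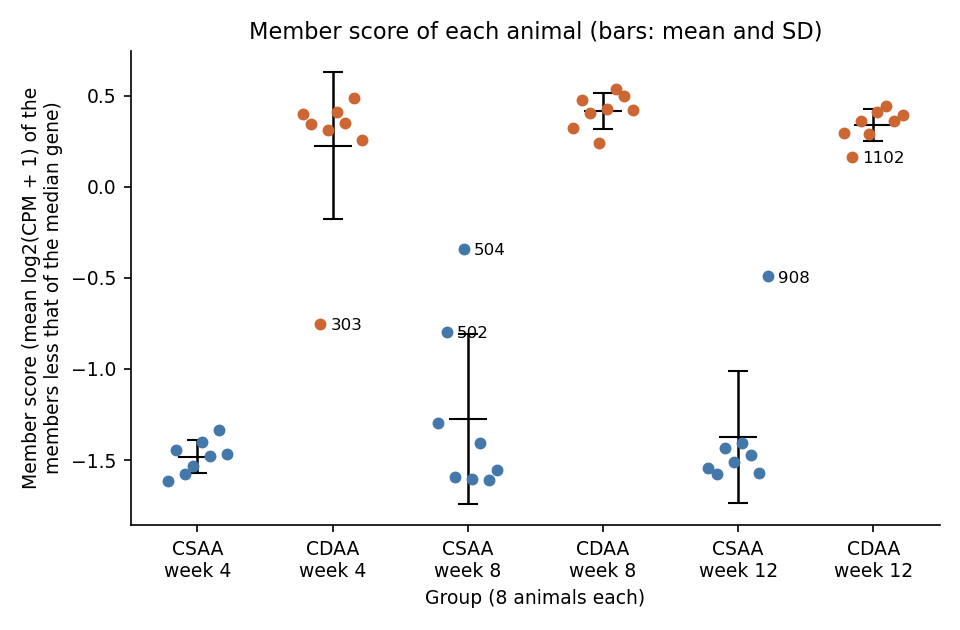
Member score of each animal by group (CSAA blue, CDAA orange), with mean and SD of 8 animals as black bars. Animals 303, 504, 502 and 908 lie between the diets, from -0.80 to -0.34, and the remaining CDAA animals lie at 0.16 or more.

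The place of these animals between the diets was also described member by member. For each member the position of the animal was placed between the mean of CSAA (0%) and the mean of CDAA (100%) of its week, without the animal itself in its own group mean, on log2(CPM + 1) less the median gene. The median position over the members was 38.3% for animal 303 (25th to 75th percentile 24.6% to 55.2%), 57.7% for animal 504 (51.1% to 64.7%) and 53.7% for animal 908 (44.6% to 62.2%). Single members reached from -10.8% to 106% in animal 303, from 27.3% to 93.2% in animal 504 and from 10.1% to 116% in animal 908. For the 297 raised genes that were not held, the medians were 32.3%, 63.7% and 56.4%. Animals 502 and 1102, which stood apart less, had medians over the members of 32.5% (21.4% to 41.3%) and 87.7% (77.8% to 98.0%). The quartiles of animals 504 and 908 were no further apart than those of animals 502 and 1102. The spread between members was not set against the error of single values, and positions on a log scale depend on the size of D. Pearson's r across the 144 members, which share a library and are not independent, was -0.23 between animals 303 and 504, 0.17 between 303 and 908 and -0.07 between 504 and 908. The reads on genes of the 3 animals, 21836816, 15851098 and 17138584, lay within the range of all animals.

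**Figure D4:**
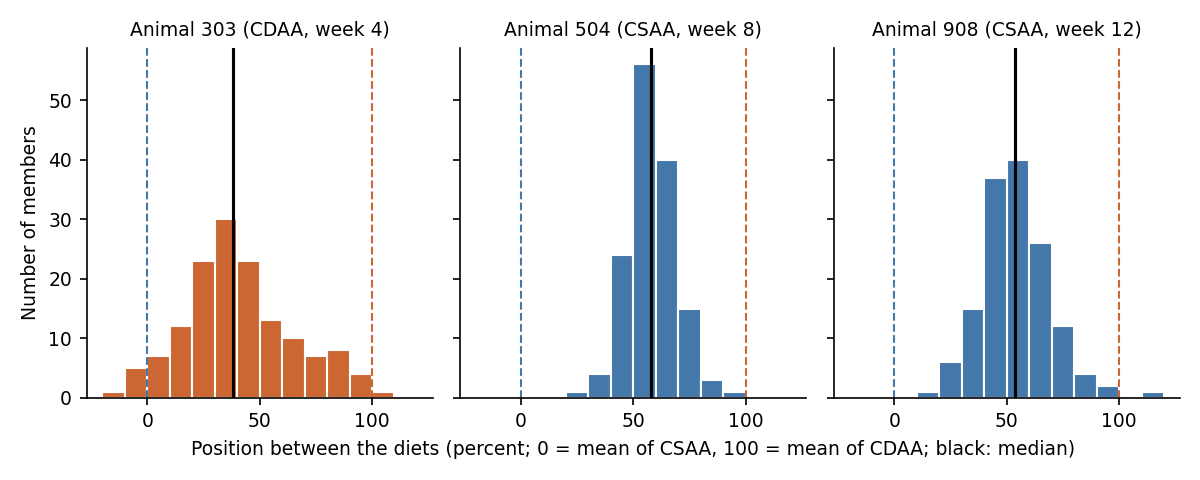
Number of members by position of animals 303, 504 and 908 between the mean of CSAA (blue dashed line at 0%) and the mean of CDAA (orange dashed line at 100%) of the same week. The black lines are the medians of 38.3%, 57.7% and 53.7%, and the members of animal 303 are spread most widely.

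The spread between animals of a group did not enter the rule. Genes chosen for a large diet difference spread more, and together, where an animal lies between the diets. The values below are therefore not independent of the selection. On CSAA at week 4, the median SD of log2(CPM + 1) was 0.24 for the members and 0.22 for all genes. On CDAA at weeks 8 and 12 it was 0.24 and 0.25 for the members, and 0.17 and 0.16 for all genes. On CDAA at week 4 it was 0.61, on CSAA at week 8 0.61 and on CSAA at week 12 0.48, against 0.24, 0.22 and 0.25 for all genes. Without animals 303, 504 and 908 these values were 0.26, 0.39 and 0.25 for the members, against 0.17, 0.19 and 0.23 for all genes. Deviations from the group means were shared among the members. The median Pearson's r between 2 members was 0.57 over 48 animals and 0.23 over the 45 animals without these 3, whereas it was 0.00 in both cases between genes taken as every 10th of the table. For raised genes that were not held it was 0.56 and 0.21. Over the 45 animals, 67 members had an r of at least 0.5 with the mean deviation of the others and 1 had an r below 0, with a range from -0.12 to 0.83 and a median of 0.49. These deviations share a library and its scaling, the genes taken as every 10th were not chosen for 1 direction, and no test was made.

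On the scale of fitted fold changes the members were less constant. edgeR was fitted to the counts of all 48 animals over 12756 expressed genes, and a gene was called where its log2 fold change was 1 or more in either direction at an adjusted p under 0.01. All 144 members were called higher on CDAA at weeks 4, 8 and 12, where 15.7%, 18.1% and 19.4% of all genes were, and nothing is read from this since the same contrast chose them. The fitted log2 fold change of the members had a median of 2.15, 1.89 and 2.06, and of 2.28, 2.22 and 2.40 without animals 303, 504 and 908. In 78 members the values at weeks 8 and 12 were within 0.4 of week 4. In 18 members one of them differed by more than 1, and in these 18 the fitted fold was lower at both later weeks. All 18 were among the 27 members with a mean below 1 CPM on CSAA at week 4, where the level is small beside the pseudocount of 1 in D. In these 27 members the median fitted value was 4.14, 2.75 and 3.09 by week, and 5 stayed within 0.4. In the other 117 members it was 2.01, 1.79 and 1.88, and 73 stayed within 0.4. The largest fitted value, 8.68 at week 4, belonged to a member without a read in any of the 8 controls of that week and depends on the prior count of the fit, so it is no measured fold.

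**Figure D5:**
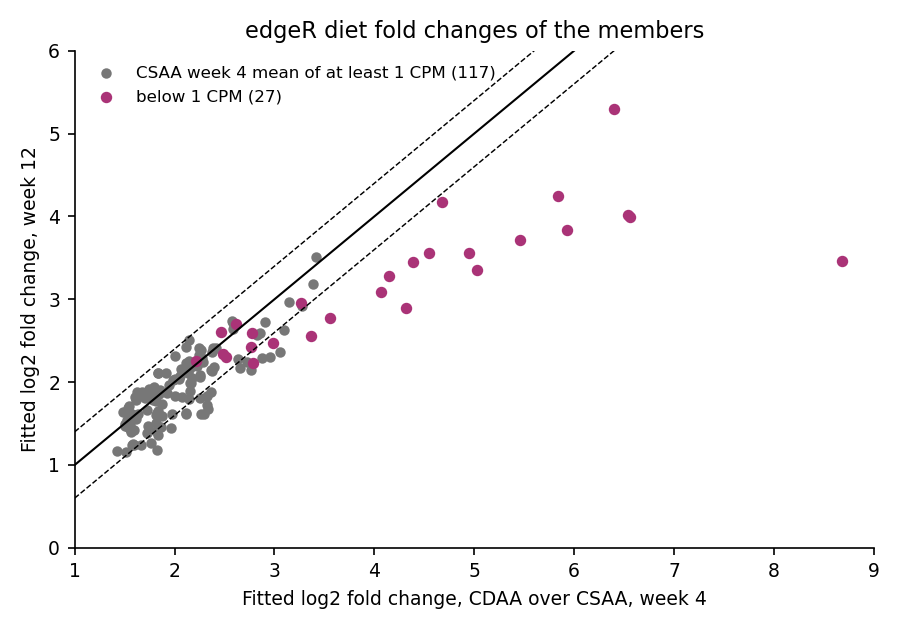
Fitted log2 fold change of CDAA over CSAA at week 4 (x axis) and week 12 (y axis) for the 144 members, those with a mean below 1 CPM on CSAA at week 4 in purple. The solid line marks equal values and the dashed lines a shift of 0.4. The 27 purple members reach 8.68 at week 4 and most lie below the lines.

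The selection used the difference between the diets, and the change over time averaged over both diets was tested as another contrast. In members close to 0 CPM on CSAA these contrasts are not independent, since D then follows the level on CDAA, and a limit on D also limits the change on CDAA. The calls are therefore given with the level on CSAA at week 4. The contrast was tested with edgeR's quasi-likelihood test in the same fit. From week 4 to week 8, 8 of 144 members were called higher, against 1.32% of all genes, and 0 were called lower, against 0.196%. At an unadjusted p under 0.05 it was 52 higher and 1 lower. The share of all genes at this p was not computed, so these counts are not read as a trait of the members. limma-voom called 1 member higher and 0 lower, and DESeq2 12 and 0. The median log2 change of the members was 0.25, against -0.02 for all genes. Of the 8 called members, 6 were among the 27 with a mean below 1 CPM on CSAA at week 4 (median change 0.99) and 2 among the other 117 (median change 0.20). In 7 of the 8, animal 504 was the highest control of week 8, as it was in 141 of all 144 members. Without animal 504, 2 members were called in this comparison. Without animals 303, 504 and 908 together 3 were, with a median change of 0.11 for the members against 0.004 for all genes. The counts of the other methods and without animals lack a share of all genes and are not read as a trait.

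From week 8 to week 12, 0 members were called higher (0.282% of all genes) and 1 lower (0.133%). At an unadjusted p under 0.05 it was 7 higher and 26 lower, again without a share of all genes. limma-voom called 0 members and DESeq2 0 higher and 1 lower. The median change was -0.11, against 0.04 for all genes, and the member called was among the 27. Without animal 908, 10 members were called, and leaving out animal 502, 504 or 901 alone left 0. From week 4 to week 12, 3 members were called higher (3.8% of all genes) and 1 lower (1.4%), with a median change of 0.18 against 0.03 for all genes. Of the 3, 2 were among the 27, and 1 higher and 1 lower call came from the other 117 members, with a median change of 0.14. At an unadjusted p under 0.05 it was 42 higher and 18 lower, again without a share of all genes. limma-voom called 1 member higher and 6 lower, and DESeq2 3 and 1. Without animal 908, 8 members were called. Without animals 303, 504 and 908 together, 1 member was called higher and 8 lower. These counts, like those of the other methods, lack a share of all genes and are not read as a trait of the members. The median change without the 3 animals was 0.01 against 0.04 for all genes. The small rise of the members as a list from week 4 to week 12 was thus not seen without the 3 animals. In contrast, 2 single members described below kept their direction.

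At an adjusted p under 0.01 and any fold, 19 members were higher at week 8 than at week 4 and 0 lower (8.99% and 16.3% of all genes). From week 8 to week 12 it was 3 higher and 5 lower (10.2% and 9.35% of all genes), and from week 4 to week 12 it was 21 higher and 10 lower (24.3% and 25% of all genes). Of the 297 raised genes that were not held, 40 were called higher and 1 lower from week 4 to week 12 at the full thresholds. Over all genes these shares were 3.8% and 1.4%. The 297 were set apart by the movement of D, which is not independent of this change in genes close to 0 CPM on CSAA.

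ENSRNOG00000007387, 34th of the members by mean D, rose over time, with higher medians at each later week on both diets. On CSAA its lowest, median and highest values were 2.18, 2.92 and 5.38 CPM at week 4, then 3.06, 6.81 and 18.6 CPM at week 8, and 4.92, 10.9 and 26.7 CPM at week 12. On CDAA they were 13.3, 20.1 and 33.3 CPM at week 4, then 39.7, 45.8 and 59.6 CPM at week 8, and 55.6, 69.9 and 82.4 CPM at week 12. On CDAA the 3 weeks overlapped only between weeks 8 and 12, and the diets did not overlap at any week. Averaged over the diets, the log2 change was 1.02 from week 4 to week 8 (SE 0.18, adjusted p = 1.81e-05 by edgeR) and 1.65 from week 4 to week 12 (SE 0.18, adjusted p = 9.61e-11). The change to week 12 was called without each animal in turn, with values from 1.55 to 1.71. The change to week 8 was called in 42 of 48 such fits, with values from 0.95 to 1.09, and fell short of the fold of 1 on the log2 scale with limma-voom (0.97), with the trend on gene length removed (0.86) and without animals 303, 504 and 908 (0.93). Its fitted log2 diet difference was 2.30, 1.98 and 1.62 at weeks 4, 8 and 12, a shift of 0.68, although D stayed within the limit of the selection. This gene was named after its values were seen, as the member called higher at week 12 with the lowest adjusted p.

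ENSRNOG00000009785, 136th by mean D, fell over time on both diets. On CSAA its lowest, median and highest values were 1.17, 2.22 and 4.10 CPM at week 4, then 0.446, 1.39 and 4.35 CPM at week 8, and 0.301, 0.568 and 2.98 CPM at week 12. On CDAA they were 5.72, 10.8 and 17.1 CPM at week 4, then 6.81, 9.29 and 11.8 CPM at week 8, and 4.25, 6.46 and 7.99 CPM at week 12. The CSAA value of 2.98 CPM at week 12 was that of animal 908, and the other 7 were at 0.978 CPM or less. The log2 change from week 4 to week 12, averaged over the diets, was -1.27 (SE 0.20, adjusted p = 8.06e-07 by edgeR), with values from -1.54 to -1.19 when each animal was left out. With the trend on gene length removed it was -0.97 and no longer met the fold of the call.

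ENSRNOG00000013222, 60th by mean D, was nearly without reads in control liver. At week 4, it was at 0 to 0.102 CPM on CSAA (0 to 2 reads, median 0) and at 0.709 to 12.3 CPM on CDAA (median 3.51). Week 8 values spanned 0.0642 to 2.73 CPM on CSAA (median 0.190) and 3.95 to 11.8 CPM on CDAA (median 7.89), and those of week 12 spanned 0 to 0.817 CPM on CSAA (median 0.0802) and 2.05 to 6.67 CPM on CDAA (median 4.06). The diets did not overlap at any week. Averaged over the diets it was called higher at week 8 than at week 4, with a log2 change of 2.23 (SE 0.54, adjusted p = 0.00106 by edgeR), and lower at week 12 than at week 8, with -1.52 (SE 0.43, adjusted p = 0.00534). The second call was lost without animal 502 (-1.13, adjusted p = 0.0417), without animal 504 and without animal 901, and also with limma-voom (-1.36, adjusted p = 0.0859). The first call rests on controls with few reads. Mean levels at weeks 4 and 8 were 0.0306 and 0.723 CPM on CSAA and 5.14 and 7.63 CPM on CDAA. The fitted log2 diet difference was 6.56 and 2.80 at these weeks, so that most of the 2.23 comes from CSAA. The other 2 members called higher at week 12 than at week 4 had log2 changes of 1.39 (SE 0.39, adjusted p = 0.00199) and 2.88 (SE 0.93, adjusted p = 0.00742), and both were also called from week 4 to week 8. The latter had no read in any CSAA animal at week 4 and at most 29 reads in a CSAA animal of week 12, so that its change rests on few reads. Its fitted log2 change from week 4 to week 12 was 5.49 on CSAA and 0.27 on CDAA, where the former depends on the prior count of the fit.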

How the data were processed

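Total liver RNA of 48 rats (6 groups of 8, from the labels) was sequenced as stranded, polyA-selected single-end libraries. The authors used STAR for alignment to Rnor_6.0 and featureCounts for counts per gene of Ensembl (the strand setting is not given in the sources used here), and these counts were deposited unscaled. The RPKM values, scaled to gene length and library, were also made by the authors and deposited. Each of the 48 columns of both tables was matched to an animal by its title.

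The members and lists were chosen with earlier results of these data known. The rule was recomputed with pandas 2.3.3. Counts were tested with edgeR 4.0.16 (TMM, quasi-likelihood, 1 coefficient per diet and week, R 4.3.3) over 12756 genes that reached 1 CPM in 5 or more animals of a group, with Benjamini-Hochberg adjustment. The fit was tested on simulated data. limma 3.58.1 (voom) and DESeq2 1.42.0 were alternatives. Other scalings, limits, filters, a removed trend on gene length and leaving out animals were also tried. The separation of the diets without 3 animals and the evenness of fitted fold changes were added after the data were seen. Groups are separate animals. Over 1128 pairs of animals the lowest chi-square per gene was 3.51, so none was a repeated library. No batch is named in the labels. Between 13619274 and 22284359 reads per animal limit precision only for low genes, and counting error is not the spread between animals.

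Of the identifiers, 0 were paired with a symbol by the reference table, so the gene lists, markers, motifs and sequences that had been listed could not be used. Of the naming rule, the member with the highest mean D and members called over time were kept, with at most 2 identifiers that rose and 2 that fell.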

Additional observations from a re-analysis of the deposited data

Results flagged for a closer look

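In 30 sets of 8 animals (the member score and 4 named members in each of 6 groups), 5 held an animal whose gap to the next exceeded Dixon's 95% critical value, a limit that chance passes in about 1 of 20 sets where sets are independent. These sets reuse the same livers and correlated genes, so that the number of flags has no chance value here, and all 5 concern animals 303 and 908. The member score of animal 303 was -0.75, with the other 7 CDAA animals of week 4 at 0.26 or more, and its level of ENSRNOG00000056219 was 1.79 CPM, with the others at 13.4 CPM or more. The member score of animal 908 was -0.49, with the other 7 CSAA animals of week 12 at -1.41 or less. Its level of ENSRNOG00000009785 was 2.98 CPM and that of ENSRNOG00000013222 was 0.817 CPM, with the others at most at 0.978 and 0.105 CPM. The gaps were taken on log2(CPM + 1) although the levels here are printed in CPM, and which animals pass can depend on the scale. On the scale used, animal 504 of CSAA at week 8 did not pass this limit, where animal 502 of the same group was also high.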

How the results depend on the processing

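The number of members was 144. It was 155 with TMM factors, 151 with DESeq2 size factors, 147 and 143 with a mean of at least 0.5 and 2 CPM, 169 without animals 303, 504 and 908 and 115 to 174 with each animal left out. It moved by over 1.5 times to 219 without subtracting the median, to 82 with RPKM in place of CPM, to 91 with a shift limit of 0.3, and to 298 and 31 with a limit of 1.2 and 2 at week 4. With a pseudocount of 0.1 it was 205 and with a shift limit of 0.5 it was 198. Of the 205 and the 82, 93 and 63 were among the 144.

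The 8 members called from week 4 to week 8 became 19 at any fold, 1 with limma-voom, 5 with the trend on gene length removed and 3 without animals 303, 504 and 908, with 2 to 13 when each animal was left out. The 1 member called from week 8 to week 12 became 8 at any fold, 0 with limma-voom and 4 without these animals, with 0 to 10 when each animal was left out. The 4 members called from week 4 to week 12 became 31 at any fold, 7 with limma-voom, 7 with library size alone and 9 without these animals, with 3 to 8 when each animal was left out. The cause of these changes was not tested. Apart from those at any fold, the counts lack a share of all genes and are not read as a trait of the members. No named member changed direction. No paired analysis was possible because the replicate numbers are animal numbers that occur once.

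Few reads limit the 27 members with under 1 CPM on CSAA at week 4, and no batch is named in the labels.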
